A study of Mus musculus with 2 samples.

Results

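The genes of the translation initiation factors (eIFs) and of the proteins that bind and block the cap-binding factor (4E-BPs) were examined in mouse lung cancer cells before and after *Runx3* restoration. Members were all genes whose symbol begins with Eif and a digit, apart from the 4 eIF2 kinase genes, which gave 51 of the 23183 genes measured. They comprised 5 genes of the eIF1 group, 11 of the eIF2 group with its exchange factor eIF2B, 14 of eIF3, 13 of the eIF4 group, 3 of the 4E-BPs, 4 of the eIF5 group and *Eif6*. Levels are given as FPKM (fragments scaled to transcript length and to library depth), which allows genes of different length to be compared, and 47 of the 51 members had a mean of at least 1 FPKM over both libraries.

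The cells are an immortalized line from lung tumors of KPRL/F mice that carry *Runx3 flox/FSF*, *FlpERT2*, a Tomato* reporter, *p53 flox/flox* and *K-Ras LSL-G12D/+*, where adenoviral Cre, delivered through the nose, switched on *K-Ras* and removed *p53* and the floxed *Runx3* allele. In KPR- cells (labelled RUNX3 -/- and 0 h) a Stop cassette between Frt sites keeps the other *Runx3* allele off, and 4-hydroxytamoxifen (4-OHT) activates the FlpERT2 recombinase that excises it, which gives KPRrestored cells (labelled RUNX3 -/+ and 16 h). Both conditions therefore share active *K-Ras* and the loss of *p53*, and both are labelled with 1 μM 4-OHT in medium containing serum. Poly(A) RNA of each was sequenced as 1 library, so no difference below has a replicate check and no p-value was computed, and restoration, exposure to 4-OHT and hours in culture cannot be told apart.

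*Runx3* itself stood at 0.348 FPKM in KPR- and 0.349 FPKM in the library labelled KPRrestored (28 and 29 estimated fragments), 0.0074 apart on the log2 scale (95% counting interval -0.79 to 0.81). The gene's FPKM thus did not separate the libraries, and every direction below rests on the labels. The epithelial markers *Krt8*, *Krt18*, *Krt19*, *Epcam* and *Cdh1* lay between 91.6 and 1931 FPKM in both libraries, whereas the lung markers *Sftpc*, *Sftpb* and *Scgb1a1* were listed at 0 in both and *Nkx2-1* was at 0.0444 FPKM or less. *Foxj1*, a marker of ciliated cells, was at 2.78 FPKM in KPR- and 0.656 FPKM in KPRrestored. Of the markers of other cell types, 1 of 5 for fibroblasts, 1 of 3 for endothelium and 1 of 4 for immune cells reached 1 FPKM in either library. Their summed levels were 12.7 and 5.33 FPKM for fibroblasts, 1.16 and 2.22 FPKM for endothelium, and 3.08 and 6.79 FPKM for immune cells in KPR- and KPRrestored respectively, and their part in the results was not tested. The steps of the low FPKM values gave depths of about 21.8 M and 22.4 M fragments.

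Initiation is the step at which a ribosome finds the start codon of an mRNA. eIF4E binds the 5′ cap and joins the scaffold eIF4G and the helicase eIF4A as eIF4F, eIF3 and eIF2 bring the small ribosomal subunit and the initiator tRNA, and eIF1, eIF1A, eIF5 and eIF5B govern start-codon choice and joining of the large subunit. The 4E-BPs compete with eIF4G for eIF4E until mTOR phosphorylates them, and kinases that phosphorylate eIF2 block its recycling by eIF2B, so that both act as brakes on translation. mRNA levels say nothing of these phosphorylations.

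Most initiation factor genes were abundant and differed little between the libraries. Differences are given on the log2 scale as KPRrestored minus KPR-, log2(FPKM + 0.005), and genes past 0.5 either way were counted. *Eif4ebp1*, *Eif2s2*, *Eif1* and *Eif3c* were higher in KPRrestored by at least 0.5, and *Eif4g1* was lower. The 4 higher genes are 8.51% of the 47 expressed members, against 12.1% of the 11231 genes with a mean of at least 1 FPKM, and the 1 lower gene is 2.13% against 9.29%. Both shares lay under those of all genes, so members past 0.5 were no more frequent than genes at large. The members had a median level of 122 FPKM in KPR-, against 13.5 FPKM for the 11231 genes, and genes of matched level were not compared. The median difference of the members was 0.031, with quartiles of -0.18 and 0.26, where all genes had a median of 0.0086 and quartiles of -0.23 and 0.27. Their summed level was 7280 FPKM in KPR- and 7399 FPKM in KPRrestored.

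**Figure D1:**
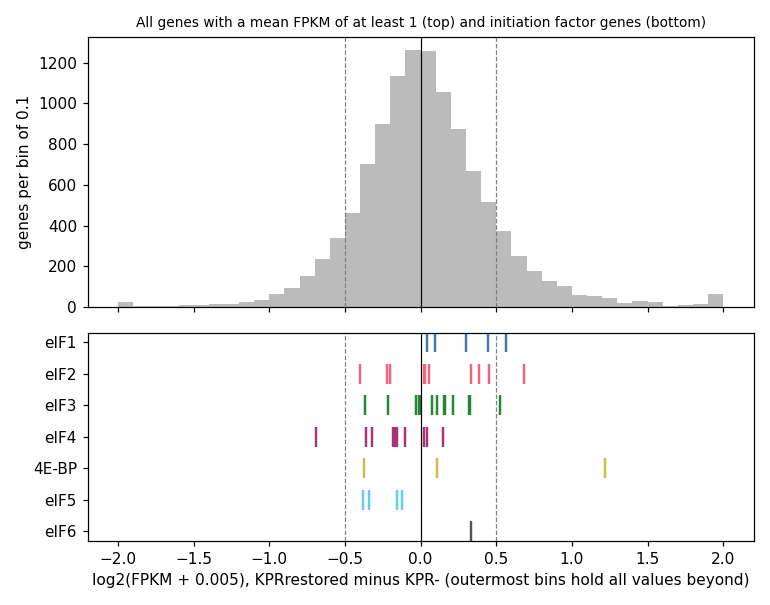
Log2 differences (x axis, KPRrestored minus KPR-, 1 library each) of all 11231 genes with a mean of at least 1 FPKM as a histogram (top, genes per bin of 0.1) and of the 47 expressed initiation factor genes as ticks by group (bottom); dashed lines mark 0.5 either way. The eIF1 ticks all lie above 0 and the eIF5 ticks all below, which with the transcript length trend removed holds for 4 of 5 and 3 of 4, and *Eif4ebp1* at 1.22 stands apart from the other members.

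A counting interval (95%, from the estimated fragments) shows whether 2 libraries differ by more than the sampling of fragments, and says nothing of how cultures vary. This interval lay above 0 for 19 of the 47 members (40.4%, against 34.3% of the genes that had an interval) and below 0 for 18 (38.3%, against 33.0%). The members' shares were slightly above those of all genes. Intervals narrow as fragments increase, and the members had a median of 122 FPKM in KPR- against 13.5 FPKM for all genes. Genes of matched level were not compared, so interval shares over all genes, here and below, are not matched for level. Over all genes, 51% of the differences were above 0 and 49% below. All 5 genes of the eIF1 group were above 0, and 4 of 5 with the transcript length trend of all genes removed. For eIF3, 8 of 13 expressed genes (61.5%) were above 0, near the share of all genes, and 7 of 13 with the trend removed. Of the expressed eIF4 genes, 3 of 11 were above 0, and 2 with the trend removed, and of the 4 eIF5 genes 0 were above it, and 1 with the trend removed.

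The promoters of 4 of the 5 members past 0.5 are shown, and any link of their sequences to the direction of the differences was not tested. No promoter was matched for the remaining member, *Eif4ebp1*, so none of the letters were sought in it. Each line gives 250 bases before and 30 after the RefSeq start site on GRCm38.p6, 5′ to 3′ on the gene's strand, and the start used for *Eif4g1* lies well inside the annotated gene. Capitals mark the E-box CACGTG, which reads alike on both strands and is bound by factors such as MYC, and the GC box GGGCGG on either strand, bound by SP factors. The windows are chr11:100319699-100319978 (plus strand) for *Eif1*, chr2:154892877-154893156 (minus) for *Eif2s2*, chr7:126566337-126566616 (minus) for *Eif3c* and chr16:20672477-20672756 (plus) for *Eif4g1*.
Eif1: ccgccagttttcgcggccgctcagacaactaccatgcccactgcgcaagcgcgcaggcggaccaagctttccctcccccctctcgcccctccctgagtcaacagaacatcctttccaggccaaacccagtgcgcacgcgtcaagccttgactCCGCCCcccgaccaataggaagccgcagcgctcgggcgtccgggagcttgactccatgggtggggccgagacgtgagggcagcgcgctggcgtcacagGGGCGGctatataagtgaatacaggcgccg
Eif2s2: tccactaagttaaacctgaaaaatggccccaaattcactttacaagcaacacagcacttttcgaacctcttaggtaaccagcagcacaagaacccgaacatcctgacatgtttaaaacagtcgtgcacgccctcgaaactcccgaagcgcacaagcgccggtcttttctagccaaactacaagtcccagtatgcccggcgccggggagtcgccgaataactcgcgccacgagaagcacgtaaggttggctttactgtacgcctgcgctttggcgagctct
Eif3c: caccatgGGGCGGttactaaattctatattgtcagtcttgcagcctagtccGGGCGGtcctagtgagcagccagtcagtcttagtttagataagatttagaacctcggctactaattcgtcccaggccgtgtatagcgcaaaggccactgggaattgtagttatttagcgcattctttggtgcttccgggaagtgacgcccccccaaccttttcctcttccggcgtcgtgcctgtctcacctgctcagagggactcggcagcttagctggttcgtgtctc
Eif4g1: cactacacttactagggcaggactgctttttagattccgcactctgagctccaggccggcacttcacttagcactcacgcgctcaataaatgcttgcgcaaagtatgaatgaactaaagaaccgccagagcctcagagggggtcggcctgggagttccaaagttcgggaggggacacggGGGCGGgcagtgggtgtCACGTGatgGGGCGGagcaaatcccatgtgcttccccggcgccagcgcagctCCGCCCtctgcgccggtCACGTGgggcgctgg
*Eif4g1*, the member that was lower in KPRrestored, carried 2 E-boxes and 3 GC boxes. Of the members that were higher, *Eif1* and *Eif3c* each carried 2 GC boxes and no E-box, and *Eif2s2* carried neither. GC made up 65.7% of the *Eif1* window, 61.1% of that of *Eif4g1*, 52.9% of that of *Eif3c* and 52.1% of that of *Eif2s2*. The RUNX letters TGTGGT or TGCGGT, on either strand, were in none of the 4 windows, which says only that these letters are not in this stretch.

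Promoters were matched for 39 of the 51 members, and *Eif4ebp1* was not among them. The E-box was in 10 of these (25.6%), against 7.15% of all 32851 promoters and 12.2% of the 8594 expressed genes with a promoter. A gene was counted where any of its promoters held the letters, so only the share of expressed genes is counted as for the members. The members holding it had a median difference of -0.031 and the expressed members without it 0.023. The 10 were *Eif1b*, *Eif3a*, *Eif3f*, *Eif3k*, *Eif4a1*, *Eif4e*, *Eif4g1*, *Eif4h*, *Eif5a* and *Eif5a2*, with differences on both sides of 0. The RUNX letters were in 7 members (17.9%, against 22.4% of all promoters and 24.03% of expressed genes). These were *Eif2a*, *Eif2b5*, *Eif3a*, *Eif3g*, *Eif5a*, *Eif5a2* and *Eif5b*, with a median difference of -0.20, against 0.035 for the 30 expressed members without the letters. Among them *Eif3a* was at 0.21 and *Eif3g* at -0.01, and *Eif5b* was at 0.051 with the length trend removed. Any link of the letters to the differences was not tested. The GC box was in 31 members (79.5%, against 35.7% and 71.7%). The letters TGATGNAA, found where ATF4 binds with a partner, were in *Eif2s3x* alone among the 39 (2.56%, against 3.97% and 2.55%).

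The 4E-BPs held the largest difference of any expressed member. *Eif4ebp1* (chr8:27260329-27276674, 3 exons), which encodes 4E-BP1, the mTOR substrate that sequesters eIF4E, stood at 92.3 FPKM in KPR- and 215 FPKM in KPRrestored, a difference of 1.22 (counting interval 1.16 to 1.28, 3594 and 8609 estimated fragments). This is 2.33-fold, and it moved the gene from rank 925 to rank 366 among all genes. The intervals of both paralogs lay below that of *Eif4ebp1*. *Eif4ebp2* stood at 29.0 and 22.3 FPKM (-0.38, interval -0.53 to -0.22). *Eif4ebp3* stood at 9.64 and 10.4 FPKM (0.11, interval -0.28 to 0.49), and 62.8% of its 100-base stretches also occur in another annotated transcript, so its value is uncertain. The summed level of the 3 genes was 131 FPKM in KPR- and 248 FPKM in KPRrestored, of which *Eif4ebp1* made up 70.5% and 86.8%.

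**Figure D2:**
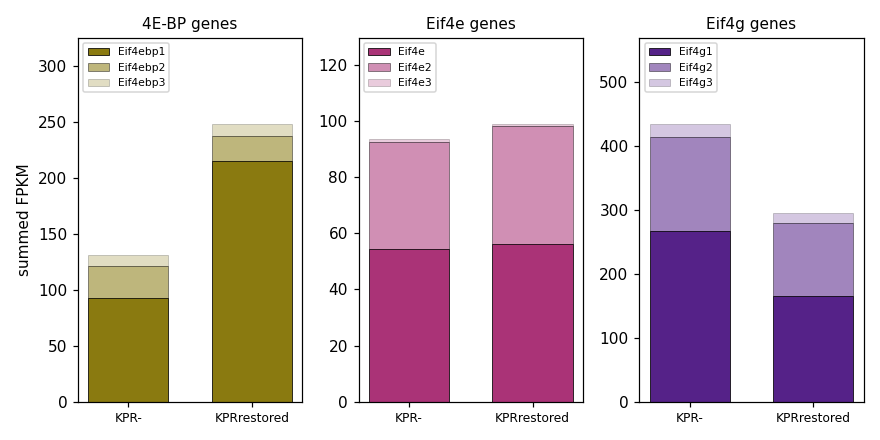
Summed FPKM (y axes, each starting at 0) of the 4E-BP, *Eif4e* and *Eif4g* genes in KPR- and KPRrestored (1 library each), stacked by gene. The 4E-BP sum is higher in KPRrestored through *Eif4ebp1*, the *Eif4e* sum is near level (93.5 and 98.7 FPKM), and the *Eif4g* sum is lower (434 and 296 FPKM).

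*Eif4e*, the cap-binding protein that the 4E-BPs hold, was nearly level at 54.5 and 56.1 FPKM, with a difference of 0.04 whose counting interval spanned 0 (-0.01 to 0.09). The ratio of *Eif4ebp1* to *Eif4e* mRNA within a library was therefore 1.69 in KPR- and 3.83 in KPRrestored, a log2 difference of 1.18 (interval 1.10 to 1.25), and with all 4E-BPs it was 2.40 and 4.41. Ratios within a library do not depend on how the libraries were scaled to each other, but they keep the trend with transcript length. *Eif4ebp1* has 1997 bases and *Eif4e* 4991, and with the trend removed their differences were 1.14 and 0.11. *Eif4e2*, whose product 4EHP binds the cap without joining eIF4G, stood at 38.0 and 42.1 FPKM (0.14), the highest difference in the eIF4 group. Its interval lay above 0, but spanned 0 with the shortest coding transcript as gene length. *Eif4e3* had 0.873 and 0.501 FPKM on 44 and 26 estimated fragments (-0.79, interval -1.56 to -0.07), and the germline gene *Eif4e1b* was listed at 0 in both libraries. *Eif4enif1*, which encodes the eIF4E transporter 4E-T, stood at 26.7 and 24.001 FPKM (-0.16).

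All 3 scaffold genes had values lower in KPRrestored. *Eif4g1* (chr16:20668313-20692884, 33 exons) stood at 267 FPKM in KPR- and 165 FPKM in KPRrestored, a difference of -0.69 (interval -0.72 to -0.67) on 30488 and 19397 estimated fragments, and its rank went from 290 to 493. It was the single one of the 47 expressed members lower by 0.5 or more. *Eif4g2*, which encodes the eIF4G relative DAP5 that lacks the eIF4E site, stood at 147 and 114 FPKM (-0.36), and *Eif4g3* at 20.04 and 16.01 FPKM (-0.32), both with intervals below 0. With the length trend removed, *Eif4g2* came to -0.18 and *Eif4g3* to -0.14, and *Eif4g1* to -0.60. The ratio of *Eif4g1* to *Eif4g2* was 1.82 in KPR- and 1.44 in KPRrestored (log2 difference -0.33, interval -0.37 to -0.30), so *Eif4g1* was lower also relative to its paralog. Set against each other, a comparison chosen after their values were seen, *Eif4ebp1* was 0.345 times the level of *Eif4g1* in KPR- and 1.30 times in KPRrestored, and *Eif4g1* to *Eif4e* was 4.90 and 2.94.

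The helicase genes were close to level. *Eif4a1*, the main eIF4A and the most abundant member of the group, stood at 703 and 654 FPKM (-0.10, interval below 0), although 60.8% of its 100-base stretches are shared with a pseudogene. Its paralog *Eif4a2* stood at 84.8 and 74.9 FPKM (-0.18), and the ratio of both, 8.28 and 8.73, differed by 0.076 (interval 0.010 to 0.14). *Eif4a3*, the helicase of the exon junction complex, stood at 132 and 134 FPKM (0.02, interval spanning 0) and had the smallest difference of the group. The helicase cofactors were both slightly lower, *Eif4b* at 277 and 246 FPKM (-0.17) and *Eif4h* at 270 and 239 FPKM (-0.18). In all, 8 of the 11 expressed eIF4 genes had an interval below 0 and 1 above (33.0% and 34.3% over all genes, not matched for level), with a median of -0.17. With the shortest coding transcript as gene length, the intervals of *Eif4enif1* (-0.40 to 0.09) and *Eif4e2* (-0.08 to 0.37) spanned 0.

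**Figure D3:**
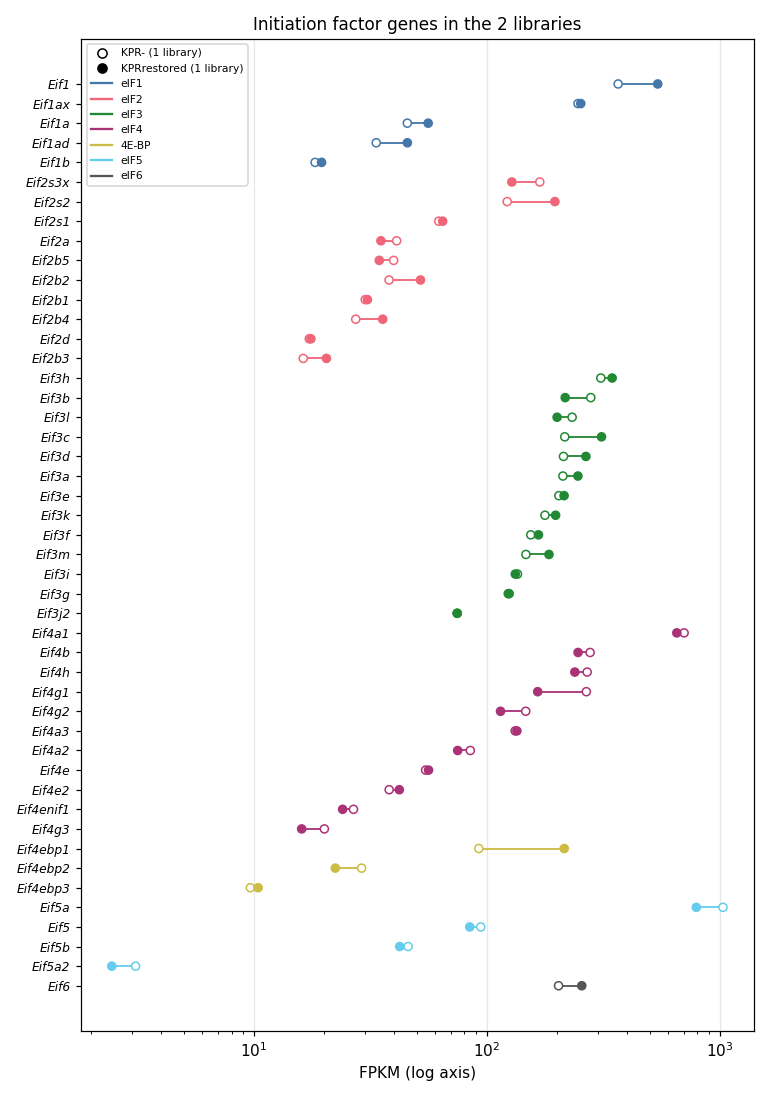
FPKM (x axis, log scale) of the 47 expressed members in KPR- (open points) and KPRrestored (filled points), 1 library each, grouped by factor and ordered by their KPR- level. Levels run from 2.45 FPKM for *Eif5a2* to 1032 FPKM for *Eif5a*, and the longest lines belong to *Eif4ebp1*, *Eif4g1* and *Eif2s2*.

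The eIF1 group, formed by gene symbol, was higher in KPRrestored in all 5 genes, with a median of 0.30. Of its intervals, 4 lay above 0 (34.3% over all genes, not matched for level). The intervals take the scaling between libraries as known. That of *Eif1ax* began at 0.015, where scaling to equal upper quartiles shifts differences by -0.022. *Eif1* (chr11:100319885-100322096, 4 exons), which guards the choice of start codon, led the group at 366 and 541 FPKM, a difference of 0.56 (interval 0.53 to 0.60, 8866 and 13497 estimated fragments). With the length trend removed, it came to 0.48 and so no longer passed 0.5. Its homolog *Eif1b* stood at 18.3 and 19.5 FPKM (0.09, interval -0.13 to 0.31), and came to -0.00023 with the length trend removed. The ratio of *Eif1* to *Eif1b* went from 20.02 to 27.8 (0.47, interval 0.25 to 0.70). For eIF1A, *Eif1ax* stood at 246 and 253 FPKM (0.04, the smallest difference of the group) and *Eif1a* at 45.5 and 55.9 FPKM (0.30). *Eif1ad*, named for its eIF1A-like domain, stood at 33.5 and 45.5 FPKM (0.44), just short of 0.5, and shares 13.4% of its stretches with *Banf1*.

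Among the eIF2 subunits the directions differed. *Eif2s2* (chr2:154871410-154892935, 9 exons), the beta subunit, stood at 122 FPKM in KPR- and 196 FPKM in KPRrestored, a difference of 0.68 (interval 0.64 to 0.73, 6209 and 10242 estimated fragments), and 18.8% of its stretches are shared with a predicted gene. *Eif2s1*, the alpha subunit that the stress kinases phosphorylate, was nearly level at 62.1 and 64.6 FPKM (0.06, interval spanning 0). *Eif2s3x*, the X-linked gamma subunit and the gene of highest level in the group in KPR-, stood at 169 and 128 FPKM (-0.40, the lowest of the group), with 35.3% of its stretches shared with a predicted gene. The 3 subunits of 1 complex thus lay at 0.68, 0.06 and -0.40, and the beta to alpha ratio was 1.97 in KPR- and 3.03 in KPRrestored (0.63, interval 0.55 to 0.70). *Eif2s3y*, the Y-linked copy, had 0.0292 FPKM (1 estimated fragment) in KPR- and was listed at 0 in KPRrestored.

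The exchange factor eIF2B, which recharges eIF2 with GTP, had a median of 0.33. Of its 5 subunits, 3 had intervals above 0 and 1 below (34.3% and 33.0% over all genes, not matched for level). The beta subunit gene *Eif2b2* stood at 38.0 and 51.9 FPKM (0.45), *Eif2b4* (delta) at 27.3 and 35.7 FPKM (0.39) and *Eif2b3* (gamma) at 16.3 and 20.4 FPKM (0.33). No subunit passed 0.5. *Eif2b1* (alpha) was level at 30.01 and 30.7 FPKM (0.03, interval spanning 0), and *Eif2b5*, the catalytic epsilon subunit, stood at 39.8 and 34.5 FPKM (-0.20, interval below 0). Of the alternative carriers of initiator tRNA, *Eif2a* stood at 40.9 and 35.1 FPKM (-0.22, interval below 0), and *Eif2d*, with the smallest difference of the group, at 17.3 and 17.5 FPKM (0.02, interval spanning 0).

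eIF3 is the largest initiation factor and bridges the small subunit and eIF4G. Apart from *Eif3j1* and *Eif3j2*, its 12 subunit genes lay within a narrow band of levels, with a mean of 200 ± 56.4 FPKM (SD over subunits) in KPR- and 217 ± 66.4 FPKM in KPRrestored and a highest level 2.48 and 2.79 times the lowest. *Eif3h* was the most abundant at 308 and 345 FPKM (0.16). *Eif3c* (chr7:126546455-126566411, 21 exons), a scaffold subunit of the core, had the largest difference, with 216 and 311 FPKM (0.52, interval 0.49 to 0.55, 14931 and 22101 estimated fragments). Its interval reached below 0.5, so counting error alone could place it on either side of that line. *Eif3b*, a peripheral subunit with an RNA-recognition motif, stood at 279 and 217 FPKM (-0.37), the lowest of the complex. The ratio of *Eif3c* to *Eif3b*, taken after their values were seen, was 0.773 in KPR- and 1.43 in KPRrestored.

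The 8 genes of the eIF3 octamer core (a, c, e, f, h, k, l and m) had a median of 0.16. Of these, 7 had intervals above 0 and 1 below (34.3% and 33.0% over all genes, not matched for level). Beside *Eif3c* and *Eif3h*, those above 0 were *Eif3m* at 147 and 185 FPKM (0.33), *Eif3a* at 212 and 246 FPKM (0.21), *Eif3k* at 178 and 197 FPKM (0.15), *Eif3f* at 154 and 166 FPKM (0.11) and *Eif3e* at 204 and 215 FPKM (0.07). *Eif3l* was the exception at 232 and 200 FPKM (-0.21). With the length trend removed, *Eif3e* lay on the other side of 0 (-0.018), and *Eif3h* came to 0.073, *Eif3k* to 0.057 and *Eif3f* to 0.045. The peripheral genes b, d, g and i had a median of -0.022, with *Eif3d*, a subunit that can itself bind the cap, at 213 and 266 FPKM (0.32), *Eif3g* at 125 and 123 FPKM (-0.01) and *Eif3i* at 135 and 132 FPKM (-0.03). *Eif3j2*, which has 1 exon in the annotation and 84.0% of its stretches in common with *Eif3j1*, stood at 74.6 and 74.5 FPKM (-0.0017, interval spanning 0, the smallest difference of the group). The 8-exon *Eif3j1* was at 0.0623 and 0.0619 FPKM on 7 estimated fragments in each library, and fragments of this pair cannot be told apart over the shared stretches.

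**Figure D4:**
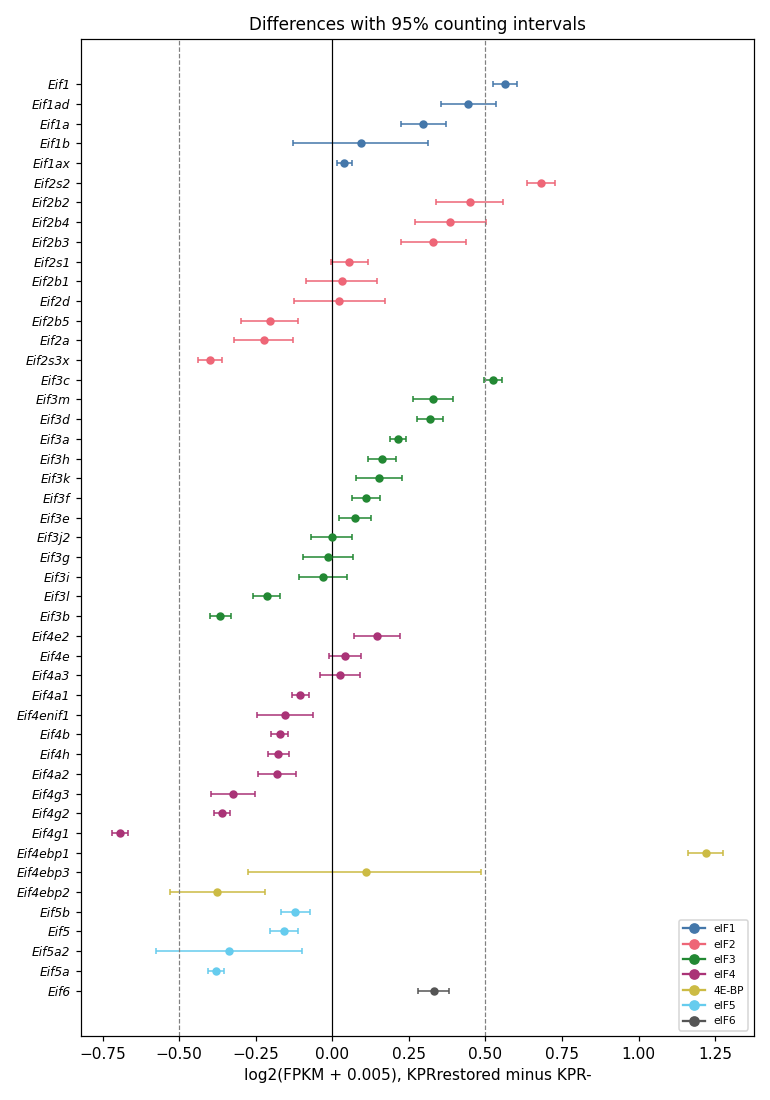
Log2 differences (x axis, KPRrestored minus KPR-) of the 47 expressed members by group, with 95% counting intervals as bars (sampling of fragments in 1 library each, not variation between cultures); dashed lines mark 0.5 either way. *Eif4ebp1* (1.22), *Eif2s2* (0.68), *Eif1* (0.56) and *Eif3c* (0.52) lie to the right of 0.5 and *Eif4g1* (-0.69) to the left of -0.5.

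The eIF5 group was lower in all 4 genes, with a median of -0.25, although *Eif5b* was at 0.051 with the length trend removed. Each gene had an interval below 0 (33.0% over all genes, not matched for level), and none passed 0.5. *Eif5a*, the hypusine-carrying factor that helps ribosomes through difficult stretches, was the most abundant of all members at 1032 FPKM in KPR- and 793 FPKM in KPRrestored (-0.38, the lowest of the group), with ranks of 82 and 101. Its paralog *Eif5a2* was the least abundant expressed member at 3.10 and 2.45 FPKM (-0.34). *Eif5*, which triggers GTP hydrolysis on eIF2, stood at 94.1 and 84.4 FPKM (-0.16), and *Eif5b*, which joins the subunits, at 45.9 and 42.2 FPKM (-0.12), with 15.0% of its stretches shared with *Rev1*. *Eif6*, which keeps the large subunit from joining too early, went the other way at 203 and 255 FPKM (0.33, interval above 0).

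Transcript length moved with the differences. Among members under 2000 bases (18 genes) the median difference was 0.10, among those from 2000 to under 4000 bases (20 genes) 0.027, and among those of 4000 bases or more (9 genes) -0.16. The other expressed genes in the same length classes had medians of 0.087, 0.039 and -0.11, which run in the same order as those of the members. The eIF4 and eIF5 groups have median lengths of 3712 and 4538.5 bases, and with the trend of all genes removed their medians were -0.17 and -0.21. The median of the eIF1 group was then 0.24, that of eIF3 0.045 and that of the eIF2 group -0.0024. In all, 6 of the 47 members then lay on the other side of 0 (*Eif1b*, *Eif2b1*, *Eif2d*, *Eif3e*, *Eif4a3* and *Eif5b*). What part length or RNA quality had in the differences was not tested, and in bulk RNA fewer cells of a type and less RNA per cell cannot be told apart.

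Genes around the initiation machinery were counted at the same threshold, which 12.1% of all genes passed upwards and 9.29% downwards. Of 28 initiation partners and regulators, 27 were expressed, 2 were higher and 0 lower, with a median of -0.095. *Pdcd4*, which blocks the eIF4A helicase, stood at 8.43 and 14.7 FPKM (0.80), and *Zfp598*, a ubiquitin ligase for collided ribosomes, at 28.7 and 41.7 FPKM (0.54). The lowest were *Pabpc4*, a poly(A)-binding protein, at 89.8 and 64.9 FPKM (-0.47) and *Rps6kb1*, the S6 kinase downstream of mTOR, at 17.1 and 12.6 FPKM (-0.44). Among the eIF2 kinases, *Eif2ak3* (PERK, of the ER) stood at 8.52 and 11.3 FPKM (0.41), the other 3 were between -0.25 and -0.21, and none passed 0.5.

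The later steps of translation and the mitochondrial factors held 2 genes past 0.5, where 12.1% of all genes were higher and 9.29% lower. Of 12 elongation and termination factors, 11 were expressed, 1 was higher and 0 lower, with a median of 0.026. *Gspt2*, a release factor, stood at 7.16 and 11.6 FPKM (0.70), whereas its paralog *Gspt1* stood at 39.5 and 29.7 FPKM (-0.41). The next highest was *Eef2k*, the kinase of eEF2, at 9.18 and 9.86 FPKM (0.10), and the next lowest *Eef1d* at 246 and 223 FPKM (-0.14). All 9 mitochondrial translation factors were expressed, 0 were higher and 1 was lower, with a median of -0.10. The lower gene was *Gfm1*, the mitochondrial elongation factor G, at 46.0 and 31.6 FPKM (-0.54), followed by *Tsfm* at 27.1 and 21.1 FPKM (-0.36). *Mtrf1l* (0.22) and *Mtif2* (0.13) were the highest of this list.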

How the data were processed

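mRNA of KPR- and KPRrestored cells was measured in 1 library each. The authors selected poly(A) RNA and made directional libraries for paired-end sequencing. They trimmed the reads using FASTX_Trimmer and BBMap, mapped them using TopHat and estimated the deposited FPKM values using Cufflinks. The paper also names a geometric normalization of read counts using EdgeR, and does not say whether the deposited FPKM carry it. The submitters' processing notes name mm10. Tool versions, the annotation and the use of strand in counting are not given in the sources used here.

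From the FPKM as deposited, differences were taken on log2(FPKM + 0.005), a scale that understates the change of low genes. Genes averaging 1 FPKM or more were counted at a threshold of 0.5. Fragments per gene were estimated for 22607 genes from the steps of low FPKM values and GENCODE M21 transcript lengths on GRCm38.p6. Of the 23183 symbols, 22148 matched directly and 649 through a synonym. A fit to 597 genes gave a mean fragment length of 212 bases. Of the estimates from 0.5 to 5.5 fragments, 78.1% in KPR- and 79.6% in KPRrestored lay within 0.1 of a whole number. Intervals of 95% are exact (Clopper-Pearson, or conditional for ratios) and cover counting error only. The Clopper-Pearson intervals were tested on data simulated with the same single length per gene that the estimates use. That cannot test the estimates for genes with several transcripts or shared stretches. Shared stretches are 100-base runs of a gene's longest transcript found in another gene's transcripts.

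The members and gene lists were chosen with earlier results of these data known. The genes named were those past 0.5, in each group the gene of highest level and of largest and smallest difference, all other members by group, and in each other list the 2 highest and 2 lowest. Alternatives were other pseudocounts, filters, scalings, thresholds and gene lengths, and the removal of the trend with transcript length. Leaving out genes that share most stretches was added after the values were seen. Promoters were RefSeq sequences on GRCm38.p6. Software was statsmodels 0.14.6, scipy 1.17.1, pandas 2.3.3, numpy 2.4.6 and matplotlib 3.10.9 on Python 3.11.15.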

Additional observations from a re-analysis of the deposited data

How the results depend on the processing

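With a threshold of 1 in place of 0.5, 1 member was higher (*Eif4ebp1*) and 0 were lower. With no filter on FPKM, 3 were lower, through *Eif2s3y* and *Eif4e3*, both under a mean of 1 FPKM. With the trend with transcript length removed, the median of the members was -0.018 in place of 0.031, and *Eif1* was at 0.48, which left 3 members higher. The other alternatives for these counts and the median (pseudocounts, a filter of 5 FPKM, 3 scalings, and leaving out genes with at least 50% of their stretches shared) kept 4 higher and 1 lower and a median above 0. With the shortest coding transcript as gene length, 18 counting intervals lay above 0 and 17 below, in place of 19 and 18. The intervals that then spanned 0 were those of *Eif4e2* and *Eif4enif1*. Counts of intervals were not repeated under other scalings of the libraries. Over 6 alternatives *Eif4ebp1* ranged from 1.14 to 1.22, *Eif2s2* from 0.62 to 0.68, *Eif3c* from 0.50 to 0.52 and *Eif4g1* from -0.72 to -0.60. No paired analysis was possible because each condition has 1 library, and for the same reason no library could be left out. Differences between cultures are therefore not measured here, and the depth limits genes with few fragments such as *Eif4e3* and *Eif4ebp3*.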
